A study of Homo sapiens with 10 samples.

Results

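Interferon-stimulated genes are described here as a set of 41 gene symbols, chosen by name from the genes that are widely known to respond to interferon, and all 41 were found among the 20379 genes of the deposited table. The list was drawn up with earlier results of these libraries known. Poly(A) RNA was sequenced from the cell lines DBTRG-05MG and U87, which are established lines grown from human glioblastomas, each with 1 library at 0, 6, 12, 24 and 48 h of 1 mM dbcAMP (dibutyryl cyclic AMP, a cell-permeable analogue of the second messenger cyclic AMP). The series thus holds 5 DBTRG-05MG and 5 U87 libraries with no replicate of any line and time, no untreated library after 0 h, and no library in which interferon was added. The series description differs from the sample labels in the unit of dose and in the length of treatment, and the labels were followed. Both groups are single cell lines, so a difference between them is a difference between these 2 lines in culture and cannot be extended to other glioblastomas.

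Interferons are secreted proteins by which cells warn each other of infection. Type I interferons (alpha and beta) and type III interferons (lambda) act through receptors bound to the kinases JAK1 and TYK2, and lead to a complex of transcription factors, STAT2 and IRF9 among them, that binds the interferon-stimulated response element (ISRE). Interferon gamma acts through JAK1 and JAK2 and leads to binding of the gamma-activated sequence (GAS). The products of the target genes block virus entry, bind or degrade foreign RNA, tag proteins with ISG15, and raise antigen presentation. Many of these genes also have a standing level in tumour cells.

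The promoter sequences below are shown because interferon signalling acts through the 2 response elements named above. The members were chosen by symbol and not by these elements. They come from RefSeq windows on GRCh38.p14, which run from 250 bases before to 50 bases after the start of each gene and were available for 34 of the 41 members (DDX58 was matched under its current symbol, RIGI). The ISRE was searched as GAAANNGAAA or, on the other strand, TTTCNNTTTC, and the GAS as TTCNNNGAA, which reads the same on both strands. An ISRE match was present in 20 of 34 windows (58.8%), against 996 of 27305 windows of all genes (3.65%). A GAS match was present in 9 of 34 windows (26.5%), against 2152 of all windows (7.88%), and 4 pairs of ISRE and GAS matches overlapped each other. The lines give stretches of 60 bases, written 5′ to 3′ on the strand of the gene, with ISRE matches in capitals in all but the last, where the capitals mark a GAS match. ISG15, IFI6 and IFITM3 are the most abundant members in DBTRG-05MG, IFITM1, IFI27 and BST2 are among those that differ most between the lines, IFIT1 and DDX60 stand for the RNA-binding members, and IRF1 is a member with a small difference and no ISRE match.
ISG15 (chr1:1013359-1013418, plus strand): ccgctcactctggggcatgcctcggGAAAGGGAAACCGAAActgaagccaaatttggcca
IFI6 (chr1:27672251-27672310, minus strand): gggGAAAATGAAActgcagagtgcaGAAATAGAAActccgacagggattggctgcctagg
IFITM3 (chr11:320861-320920, minus strand): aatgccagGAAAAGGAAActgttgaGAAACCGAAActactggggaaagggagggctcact
IFITM1 (chr11:313975-314034, plus strand): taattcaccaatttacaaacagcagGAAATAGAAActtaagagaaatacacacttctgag
IFI27 (chr14:94110616-94110675, plus strand): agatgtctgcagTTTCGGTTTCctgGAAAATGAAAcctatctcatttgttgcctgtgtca
BST2 (chr19:17405720-17405779, minus strand): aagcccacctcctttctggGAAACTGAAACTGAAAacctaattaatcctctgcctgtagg
IFIT1 (chr10:89392495-89392554, plus strand): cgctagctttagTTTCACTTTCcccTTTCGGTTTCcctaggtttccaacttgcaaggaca
DDX60 (chr4:168318771-168318830, minus strand): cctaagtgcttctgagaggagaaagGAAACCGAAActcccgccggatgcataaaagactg
IRF1 (chr5:132490864-132490923, minus strand): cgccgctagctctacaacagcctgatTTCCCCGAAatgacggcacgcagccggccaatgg
In IFI6, IFITM3, IFI27 and IFIT1 the stretch holds separate ISRE matches, and in ISG15 and BST2 the matches share bases. A match describes the letters in the window, not a bound site. The 20 members with an ISRE match had a median line difference of 5.03 on the log2(FPKM + 1) scale (range 2.48 to 9.30), and the 14 members whose window held none had a median of 3.50 (range 1.45 to 7.83). The 2 ranges overlapped over most of their length. OAS1, RSAD2 and XAF1 were among the members without an ISRE match. Neither an ISRE nor a GAS match was found in the windows of DDX58, HERC6, UBE2L6, RSAD2, XAF1, SP100, PARP9, STAT2, PSMB8 and PSMB9.

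Values are given in FPKM (fragments counted per length of transcript and per number of fragments sequenced), a unit inferred from the values themselves. Levels can thus be compared roughly between genes. No further scaling between libraries was applied to the values given. Library medians of all tested genes ran from 0.20 above to 0.27 below the mean library on the log2 scale. Depth was estimated at 8.9 to 9.9 M fragments in the DBTRG-05MG libraries and 9.5 to 10.4 M in the U87 libraries, on an approximate scale. A value of 0 means not detectable at this depth. Where a sentence gives 5 values for a line, they are those of 0, 6, 12, 24 and 48 h in that order. A line difference is DBTRG-05MG minus U87 in log2(FPKM + 1), from a limma fit with time as a block over the 12352 genes whose mean reached 1 FPKM, given with its standard error and an adjusted p (Benjamini-Hochberg over those genes). All 41 members passed that filter, but 10 of them have a U87 mean under 1 FPKM and passed through DBTRG-05MG. These are IFITM1, MX1, OAS1, OAS2, IFIT1, IFIT2, DDX60, BST2, RSAD2 and XAF1. A call for them could hardly go the other way, so their p-values are no test of direction. The p-values measure only the spread of these libraries over the times.

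All 41 members were higher in DBTRG-05MG than in U87. The members together summed to 13032, 10492, 14047, 14547 and 15029 FPKM in DBTRG-05MG, against 321, 293, 347, 325 and 337 FPKM in U87. These sums were 2.51 to 3.59% of all FPKM of a DBTRG-05MG library and 0.061 to 0.071% of those of a U87 library. The median member lay between 67.9 and 97.2 FPKM in DBTRG-05MG, above the median of all tested genes (8.91 to 10.0 FPKM), and between 1.61 and 1.95 FPKM in U87, below the median of all tested genes (6.97 to 8.43 FPKM). In DBTRG-05MG 39 to 41 members reached 10 FPKM in a library, and in U87 7 to 9 did.

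By limma, 41 of 41 members were called higher in DBTRG-05MG (adjusted p from 3.09e-09 to 0.00386) and none lower, where 35.2% of all tested genes were called higher and 19.7% lower. For all 41 the lowest DBTRG-05MG library stood above the highest U87 library, as it did for 27.1% of all tested genes. At least a 4-fold difference in FPKM + 1 at all 5 times was seen in 36 of 41 members, against 4.52% of all tested genes. Among the 10682 genes whose mean reached 1 FPKM in each line, 31 members remained, of which 31 were called higher and 26 were at least 4-fold higher at all 5 times, against 30% and 1.52% of those genes. The members include 19 of the 100 genes and 33 of the 500 genes with the largest fitted difference. Both counts include members that passed the filter through DBTRG-05MG. The median difference over the members was 4.06, 4.44, 4.61, 4.70 and 4.30 at 0, 6, 12, 24 and 48 h, and that over all tested genes was 0.09, 0.03, 0.18, 0.36 and 0.30. The difference was thus present at 0 h, before any dbcAMP. The order of the members differed between the lines: over the 41 genes, which are not independent, the Spearman rho between the mean level in DBTRG-05MG and that in U87 was 0.06.

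**Figure D1:**
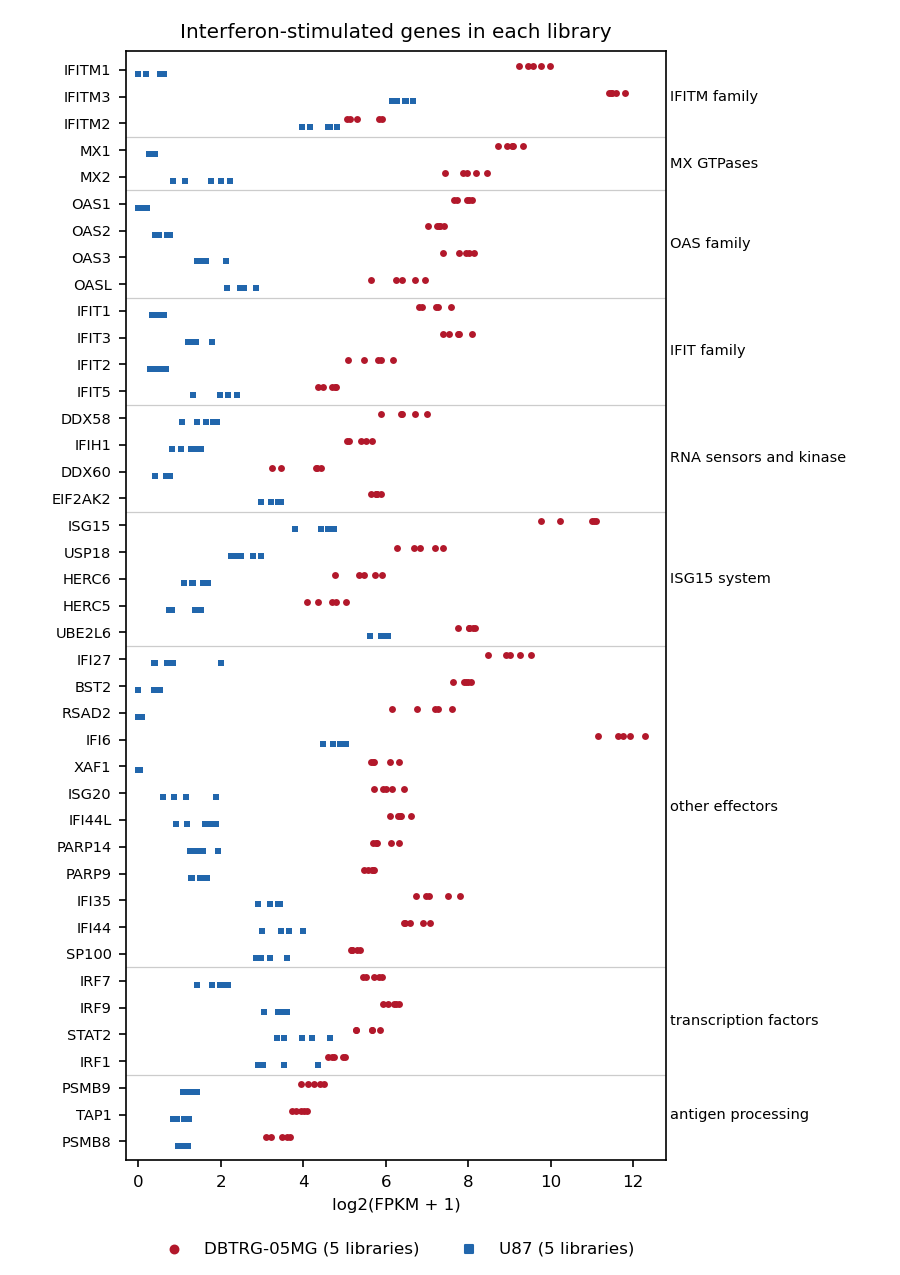
Level of each member in each library, as log2(FPKM + 1) on the horizontal axis, with red circles for the 5 DBTRG-05MG libraries and blue squares for the 5 U87 libraries, grouped by role. No blue square reaches the red circles of the same gene, and the distance is smallest for IFITM2, IRF1 and STAT2.

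The IFITM proteins sit in cell membranes and hinder the fusion of viruses with them. IFITM3 had 3557, 2870.1, 2754, 3077 and 2814 FPKM in DBTRG-05MG and 76.1, 70.6, 100.2, 88.8 and 87.5 FPKM in U87, a difference of 5.14 ± 0.16 (limma adjusted p = 2.56e-08). IFITM1 had 1008, 599, 698, 868 and 766 FPKM in DBTRG-05MG and 0.14, 0.13, 0.43, 0 and 0.54 FPKM in U87, a difference of 9.30 ± 0.18 (limma adjusted p = 3.09e-09), the largest of all 12352 genes. It passed the filter through DBTRG-05MG, so its call could hardly go the other way. IFITM2 had 59.4, 34.1, 38.8, 56.1 and 32.1 FPKM in DBTRG-05MG and 14.6, 16.9, 27.3, 24.2 and 23.2 FPKM in U87, a difference of 1.01 ± 0.22 (limma adjusted p = 0.00386), the smallest of all members. IFITM1 was thus abundant in DBTRG-05MG and at or near 0 in U87, whereas for IFITM2 the lowest DBTRG-05MG library, that of 48 h, lay close above the highest U87 library, that of 12 h. These 3 genes lie side by side on chromosome 11 (GRCh38, GENCODE 29), with IFITM1 at chr11:313506-315272, IFITM2 at chr11:307631-315272 and IFITM3 at chr11:319669-327537. They are close copies of each other, and the annotated exons of IFITM1 and IFITM2 overlap, so the split of reads among them is uncertain.

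MX1 and MX2 are dynamin-like GTPases that trap incoming viruses. MX1 had 533, 494, 645, 543 and 424 FPKM in DBTRG-05MG and 0.22, 0.32, 0.23, 0.20 and 0.19 FPKM in U87, a difference of 8.73 ± 0.14 (limma adjusted p = 3.09e-09). MX2, its neighbour on chromosome 21, had 248, 293, 348, 232 and 172 FPKM in DBTRG-05MG and 1.20, 3.03, 3.70, 2.38 and 0.79 FPKM in U87, a difference of 6.39 ± 0.15. Both groups were far apart for both genes, and MX1 stayed under 1 FPKM in every U87 library, so its call could hardly go the other way.

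OAS1, OAS2 and OAS3 answer double-stranded RNA by making an oligoadenylate messenger that activates RNase L, while OASL lacks that activity and enhances RIG-I signalling. OAS1 had 210.4, 202, 257, 252 and 272 FPKM in DBTRG-05MG and 0, 0.049, 0.15, 0.053 and 0 FPKM in U87, with 2 of the 5 U87 libraries at 0. OAS2 had 155, 130.3, 169.7, 159.8 and 151 FPKM in DBTRG-05MG and 0.66, 0.42, 0.70, 0.61 and 0.33 FPKM in U87. OAS3 had 282, 217, 257, 248 and 165 FPKM in DBTRG-05MG and 3.40, 2.11, 1.90, 3.37 and 1.68 FPKM in U87. These 3 neighbours on chromosome 12 were above 100 FPKM in every DBTRG-05MG library and differed by 7.83 ± 0.14, 6.64 ± 0.13 and 6.08 ± 0.14 from U87. OASL had 48.6, 83.7, 122, 103 and 75.6 FPKM in DBTRG-05MG and 4.88, 6.20, 3.44, 4.69 and 4.54 FPKM in U87, a difference of 3.88 ± 0.23. OASL was the member of this family with the highest level in U87 and the smallest difference.

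The IFIT proteins bind foreign RNA at its end or its cap. The 4 genes lie within 137.3 kb on chromosome 10 (IFIT1 at chr10:89392546-89406486). IFIT3 had 186, 218, 273, 216 and 168 FPKM in DBTRG-05MG and 1.36, 1.65, 2.48, 1.57 and 1.31 FPKM in U87, a difference of 6.31 ± 0.13. IFIT1 had 111, 118, 191, 153 and 148 FPKM in DBTRG-05MG and 0.54, 0.39, 0.26, 0.49 and 0.47 FPKM in U87, a difference of 6.64 ± 0.17. Both were over 100 FPKM in every DBTRG-05MG library and low in every U87 library. IFIT2 had 33.0, 57.7, 71.6, 54.8 and 43.5 FPKM in DBTRG-05MG and 0.51, 0.25, 0.38, 0.60 and 0.22 FPKM in U87, a difference of 5.21 ± 0.19, and its exons overlap those of LIPA on the other strand. IFIT5 had 19.5, 21.3, 26.9, 26.2 and 24.9 FPKM in DBTRG-05MG and 3.55, 4.26, 4.21, 2.92 and 1.499 FPKM in U87, a difference of 2.57 ± 0.20. IFIT5 was the highest of the 4 in U87 and the lowest in DBTRG-05MG.

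DDX58 (RIG-I) and IFIH1 (MDA5) sense viral RNA in the cytoplasm, DDX60 is a helicase that aids RIG-I, and EIF2AK2 (PKR) is the kinase that halts translation on double-stranded RNA. DDX58 had 58.6, 83.2, 127, 104 and 81.4 FPKM in DBTRG-05MG and 2.12, 2.76, 2.52, 1.66 and 1.09 FPKM in U87, a difference of 4.91 ± 0.19. IFIH1 had 32.2, 33.7, 50.1, 44.7 and 41.5 FPKM in DBTRG-05MG and 1.04, 1.61, 1.85, 0.76 and 1.41 FPKM in U87, a difference of 4.15 ± 0.17. The 2 sensors were apart in every library. DDX60 had 8.46, 10.0, 19.02, 20.4 and 18.9 FPKM in DBTRG-05MG and 0.72, 0.60, 0.32, 0.33 and 0.71 FPKM in U87, a difference of 3.34 ± 0.25. EIF2AK2 had 58.4, 54.5, 53.2, 53.1 and 49.0 FPKM in DBTRG-05MG and 9.82, 8.24, 9.92, 9.40 and 6.82 FPKM in U87, a difference of 2.48 ± 0.13. EIF2AK2 varied little over time in either line, and its groups did not overlap.

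ISG15 is a ubiquitin-like protein that is attached to other proteins by UBE2L6 (the conjugating enzyme) and HERC5 (the ligase) and removed by USP18, which also dampens the type I receptor. HERC6 is a relative of HERC5 that acts as the ligase in mice. ISG15 had 1194, 875, 2122, 2058 and 2202 FPKM in DBTRG-05MG and 23.1, 25.2, 20.6, 13.0 and 25.8 FPKM in U87, a difference of 6.18 ± 0.28 (limma adjusted p = 2.02e-07). UBE2L6 had 284, 216, 258, 275 and 260.3 FPKM in DBTRG-05MG and 65.1, 48.3, 48.4, 57.7 and 62.0 FPKM in U87, a difference of 2.19 ± 0.13. UBE2L6 was, after IFITM3, the most abundant member in U87, and its groups stayed apart. USP18 had 113, 145, 165, 102 and 76.4 FPKM in DBTRG-05MG and 4.66, 6.83, 5.83, 4.24 and 3.79 FPKM in U87, a difference of 4.29 ± 0.14. HERC5 had 19.6, 16.2, 31.9, 26.5 and 24.9 FPKM in DBTRG-05MG and 1.88, 0.77, 0.67, 0.72 and 1.61 FPKM in U87, a difference of 3.55 ± 0.22. HERC6 had 39.9, 52.6, 59.0, 43.6 and 26.5 FPKM in DBTRG-05MG and 1.52, 1.46, 1.95, 2.22 and 1.15 FPKM in U87, a difference of 4.06 ± 0.16. All 5 genes of the ISG15 system were thus higher in every DBTRG-05MG library.

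The other effectors include IFI6, a membrane protein that protects against virus-induced death, and IFI27, its relative. IFI6 had 3156, 2261, 3456, 3872 and 5008 FPKM in DBTRG-05MG and 21.4, 25.6, 30.6, 28.9 and 31.8 FPKM in U87, a difference of 6.92 ± 0.16. IFI6, IFITM3 and ISG15 together made up 57.2 to 66.7% of the summed level of all members in DBTRG-05MG and 37.5 to 43.6% in U87. IFI27 had 480.1, 359, 513, 616 and 735 FPKM in DBTRG-05MG and 0.61, 0.30, 0.78, 0.32 and 2.99 FPKM in U87, a difference of 8.18 ± 0.19. BST2 (tetherin, which holds budding viruses at the cell surface) had 269, 197, 253, 237 and 247 FPKM in DBTRG-05MG and 0, 0.31, 0.44, 0.34 and 0.42 FPKM in U87, a difference of 7.54 ± 0.16. RSAD2 (viperin, an enzyme that makes a chain-terminating nucleotide) had 70.5, 107, 195, 145 and 153 FPKM in DBTRG-05MG and 0.056, 0, 0, 0.030 and 0 FPKM in U87, a difference of 6.97 ± 0.22. RSAD2 was not detectable at this depth in 3 of 5 U87 libraries, and its exons overlap those of CMPK2 on the other strand. IFI35 had 132, 105, 124, 180.1 and 222 FPKM in DBTRG-05MG and 8.14, 8.18, 9.50, 9.85 and 6.48 FPKM in U87, a difference of 3.99 ± 0.20. The remaining effectors ranged in their line difference from 2.08 for SP100, a nuclear body protein, to 5.88 for XAF1, a promoter of apoptosis that was at 0 in 2 of 5 U87 libraries. Between these came IFI44 (3.28), the ADP-ribosyltransferase family members PARP9 (4.17) and PARP14 (4.42), IFI44L (4.88) and the exonuclease ISG20 (4.92).

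The transcription factors among the members had line differences from 1.45 to 3.80, with a median of 2.18. STAT2 had 49.5, 38.1, 57.1, 49.6 and 37.9 FPKM in DBTRG-05MG and 17.6, 10.7, 9.22, 14.7 and 24.2 FPKM in U87, a difference of 1.60 ± 0.24 (limma adjusted p = 0.000383). IRF9, its partner, had 72.5, 78.8, 65.3, 75.5 and 60.4 FPKM in DBTRG-05MG and 10.6, 9.54, 11.2, 9.91 and 7.21 FPKM in U87, a difference of 2.75 ± 0.14. Both partners were thus present in both lines. IRF1, an activator of many interferon gamma targets, had 23.2, 31.5, 30.2, 25.7 and 24.9 FPKM in DBTRG-05MG and 6.42, 10.6, 19.6, 6.78 and 7.19 FPKM in U87, a difference of 1.45 ± 0.19 (limma adjusted p = 2e-04). IRF7, the factor that amplifies interferon alpha genes, had 43.0, 56.2, 51.9, 59.0 and 45.1 FPKM in DBTRG-05MG and 1.66, 2.44, 3.50, 3.25 and 2.97 FPKM in U87, a difference of 3.80 ± 0.15. IRF1 came closest at 12 h, when the U87 library was its highest, and IRF7 was far apart at all times.

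The antigen processing members lie within 18.9 kb on chromosome 6. PSMB8, a subunit of the immunoproteasome, had 8.26, 7.60, 10.2, 11.2 and 11.7 FPKM in DBTRG-05MG and 1.32, 1.20, 1.15, 1.17 and 0.96 FPKM in U87, a difference of 2.31 ± 0.16. PSMB9, another such subunit, had 21.8, 14.4, 16.4, 18.3 and 20.0 FPKM in DBTRG-05MG and 1.51, 1.28, 1.27, 1.12 and 1.69 FPKM in U87, a difference of 3.01 ± 0.14. TAP1, a subunit of the peptide transporter, had 14.5, 12.3, 15.1, 16.0 and 13.1 FPKM in DBTRG-05MG and 0.80, 0.90, 1.14, 1.20 and 1.33 FPKM in U87, a difference of 2.87 ± 0.15. The groups did not overlap for any of the 3, and the exons of PSMB8 and PSMB9 overlap on opposite strands.

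Of the 5 members that were not 4-fold apart in FPKM + 1 at all 5 times, IFITM2 ranged over the times from 0.45 to 1.95, IRF1 from 0.60 to 1.78, STAT2 from 0.63 to 2.51, SP100 from 1.55 to 2.34 and PSMB8 from 1.97 to 2.70. For PSMB8 this rests on the pseudocount of 1, since in FPKM its lowest DBTRG-05MG library was 5.77 times its highest U87 library. By role, the median difference was 7.56 for the MX genes, 6.36 for the OAS family, 5.76 for the IFIT family, 5.14 for the IFITM family, 4.90 for the other effectors, 4.06 for the ISG15 system, 3.75 for the RNA sensors and EIF2AK2, and 2.87 for the antigen processing genes. For genes near 0 in U87 the size rests on the pseudocount of 1: with 0.1 in its place the difference was 11.41 for IFITM1 and 10.10 for RSAD2.

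**Figure D2:**
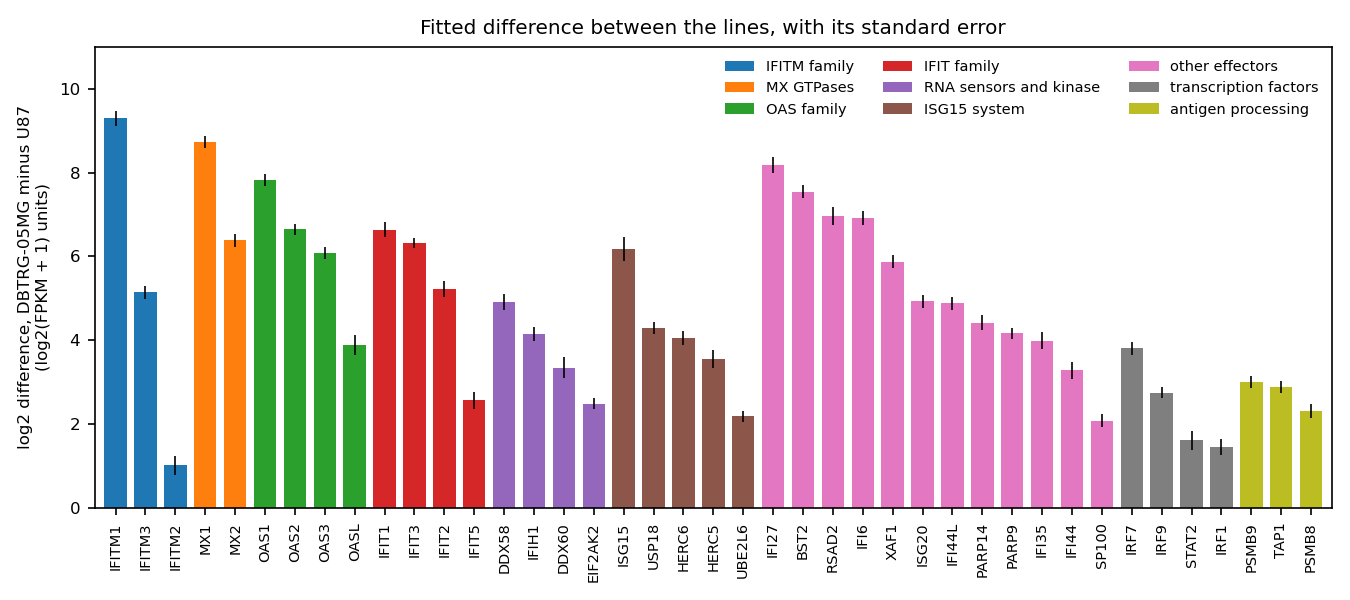
Fitted line difference of each member (bars, DBTRG-05MG minus U87, in log2(FPKM + 1) units) with its standard error, coloured by role. All bars are above 0, from 1.01 for IFITM2 to 9.30 for IFITM1, and the transcription factors and antigen processing genes stand lower than the MX genes.

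Over the time course, no member passed the tests used. In the mean of both lines, 0 of 41 members were called in either direction at 6, 12, 24 or 48 h against 0 h by limma (smallest adjusted p = 0.933, 0.928, 1 and 0.226), where 0.0081, 0.0081, 0.0081 and 0% of all tested genes were called. At an unadjusted p under 0.05 there were 1, 4, 1 and 3 members, against 5.31, 4.47, 3.51 and 12.2% of all tested genes. A trend with the rank of time was called for 0 members in DBTRG-05MG, against 1.12% of all tested genes, and for 0 members in U87, against 0% of all tested genes. A difference of trend between the lines was called for 0 members, against 0.0162% of all tested genes. At an unadjusted p under 0.05 there were 6, 2 and 5 members in these 3 tests, against 17.9, 12.5 and 13.4% of all tested genes. The smallest adjusted p of a trend in DBTRG-05MG was that of DDX60, with a slope of 0.31 ± 0.08 (SE) per time step (limma adjusted p = 0.101), and in U87 that of IFIT5, with -0.22 ± 0.08 (limma adjusted p = 0.361). With 1 library per time, a change at a single time cannot be told from the spread of libraries. A slope over the rank of time largely misses a course that peaks at 12 h, so 0 calls do not show a flat course.

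As sizes with no test, the members' median change from 0 h in DBTRG-05MG was -0.10, 0.27, 0.23 and 0.03 at 6, 12, 24 and 48 h, where all tested genes had -0.07, 0.0002, 0.05 and 0.02. In DBTRG-05MG 18, 29, 30 and 21 members stood above their 0 h value at 6, 12, 24 and 48 h, where 38.7, 50, 54.4 and 52% of all tested genes did. In U87 the medians were -0.03, 0.04, -0.05 and -0.07, where all tested genes had -0.01, -0.04, -0.15 and -0.15. The 12 h library was the highest of the 5 for 18 of 41 members in DBTRG-05MG (43.9%), against 17.7% of all tested genes. It was the highest for 13 of 41 members in U87 (31.7%), against 13.9% of all tested genes.

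At least a 2-fold higher FPKM + 1 than at 0 h was reached in DBTRG-05MG by 0, 5, 3 and 2 members at 6, 12, 24 and 48 h, against 1.17, 2.47, 3.18 and 4.57% of all tested genes. In U87 it was reached by 0, 3, 0 and 1 members, against 2.73, 2.61, 2.15 and 2.14%. On this scale no member was 2-fold lower at any time, against 0.81, 1.61, 1.6 and 5.16% of all tested genes in DBTRG-05MG and 2.43, 2.67, 4.5 and 4.32% in U87. With a pseudocount of 0.1 in place of 1, the counts in DBTRG-05MG were the same, while in U87 2, 7, 2 and 4 members were 2-fold higher and 4, 2, 2 and 1 were 2-fold lower, HERC5 among the lower at 6, 12 and 24 h. The 5 members in DBTRG-05MG at 12 h were OASL (a log2 change of 1.31), IFIT2 (1.09), DDX58 (1.10), DDX60 (1.08) and RSAD2 (1.45). OASL, DDX60 and RSAD2 were also past 2-fold at 24 h, and DDX60 and RSAD2 at 48 h. RSAD2, whose values in each library are given above, was lowest in the 0 h library of DBTRG-05MG and highest in the 12 h library. The 3 members in U87 at 12 h were MX2 (1.09), ISG20 (1.28) and IRF1 (1.47), and the member at 48 h was IFI27 (1.31). ISG20 had 59.8, 63.2, 86.7, 70.6 and 51.2 FPKM in DBTRG-05MG and 0.52, 0.81, 2.68, 1.21 and 1.22 FPKM in U87, highest at 12 h in both lines.

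All 4 later libraries stood above the 0 h library for 12 members in DBTRG-05MG, against 18.8% of all tested genes, and for 7 members in U87, against 9.35%. All 4 stood below it for 9 members in DBTRG-05MG, against 22.7%, and for 11 members in U87, against 24.6%. The 12 above in DBTRG-05MG were OASL, IFIT1, IFIT2, IFIT5, DDX58, IFIH1, DDX60, RSAD2, SP100, PARP14, IRF1 and IRF7, and the 9 below were the 3 IFITM genes, OAS3, EIF2AK2, UBE2L6, BST2, PARP9 and PSMB9. The 7 above in U87 were IFITM2, BST2, ISG20, IFI6, IRF1, IRF7 and TAP1, and the 11 below were OAS3, IFIT1, DDX60, HERC5, UBE2L6, RSAD2, IFI44, SP100, PARP9, PARP14 and PSMB8. The 2 most abundant members differed in course in DBTRG-05MG: IFI6 was highest at 48 h, with a change of 0.67 from 0 h, whereas IFITM3 was highest at 0 h and stood 0.34 lower at 48 h. ISG15 stood 0.45 lower at 6 h and 0.88 higher at 48 h than at 0 h in DBTRG-05MG.

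**Figure D3:**
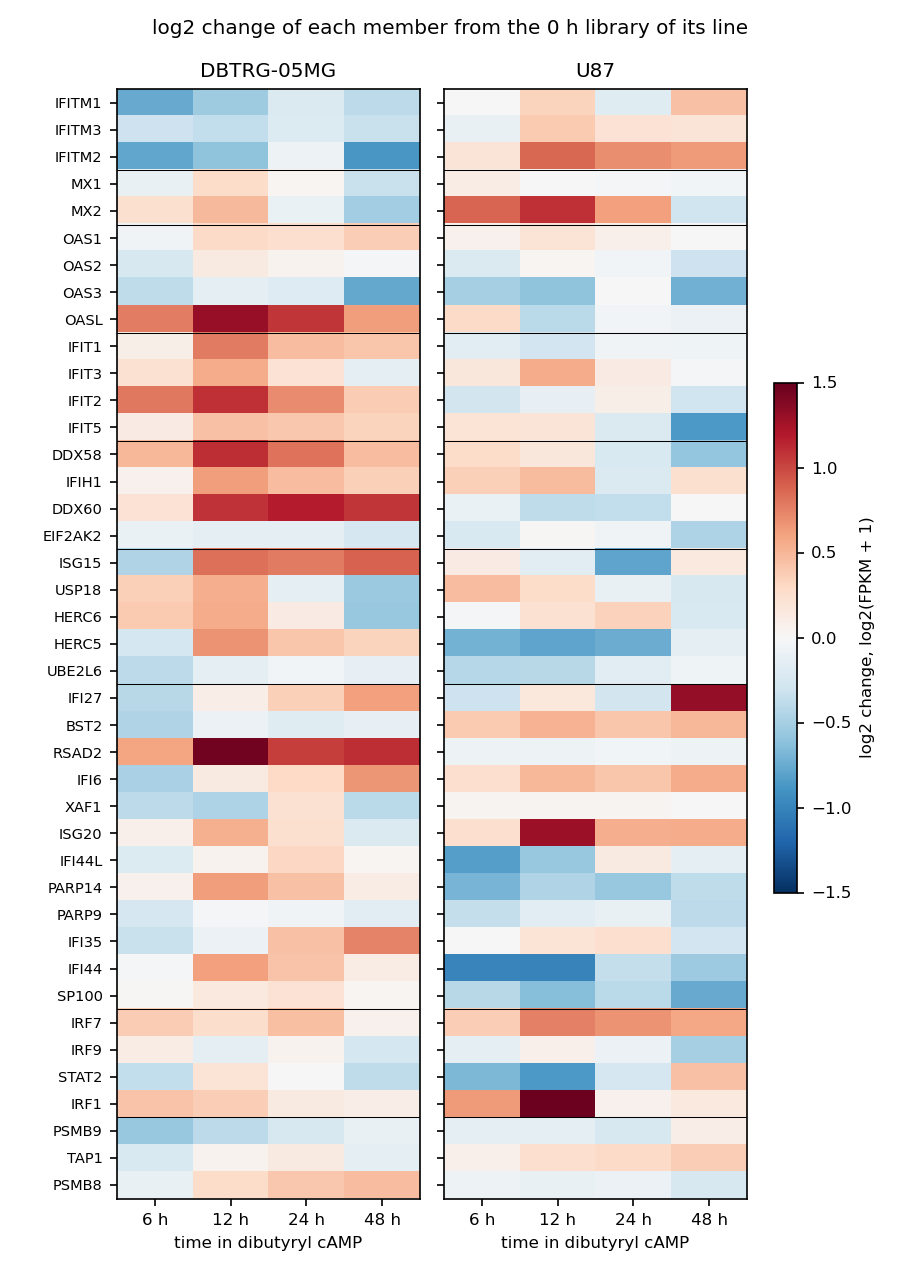
Change of each member from the 0 h library of its own line, in log2(FPKM + 1) units (colour; red above 0, blue below 0), for DBTRG-05MG on the left and U87 on the right. The strongest reds are RSAD2 and OASL at 12 h in DBTRG-05MG (1.45 and 1.31), and IRF1 at 12 h and IFI27 at 48 h in U87 (1.47 and 1.31).

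**Figure D4:**
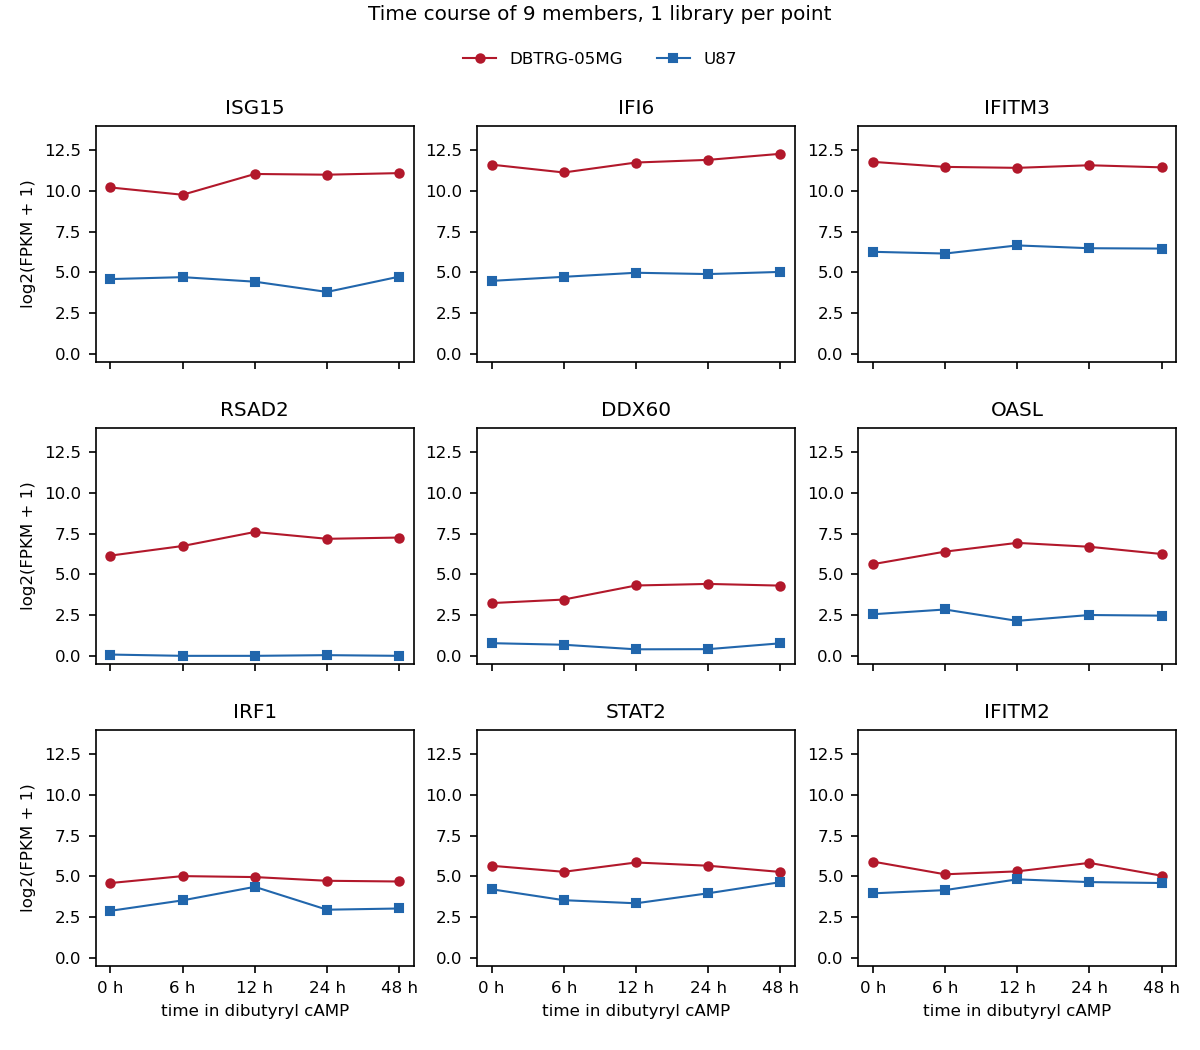
Time course of 9 members in DBTRG-05MG (red circles) and U87 (blue squares), with time in dbcAMP on the horizontal axis (evenly spaced steps) and log2(FPKM + 1) on the vertical axis, 1 library per point. The lines stay apart for all 9, and come closest for IFITM2 (a difference of 0.45 at 48 h).

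Transcripts of interferon genes themselves were found in DBTRG-05MG and were not detectable at this depth in U87. Of 24 interferon symbols looked for, 7 were found among the genes of the deposited table, and all 7 were at 0 in all 5 U87 libraries. The others, IFNG among them, were not found under those symbols, so no level can be given for them. IFNL1, a type III interferon, had 9.09, 18.0, 10.4, 8.19 and 6.17 FPKM in DBTRG-05MG, with a line difference of 3.43 ± 0.20 (limma adjusted p = 1.11e-06). IFNB1, the type I interferon beta, had 1.21, 0.39, 1.21, 2.18 and 1.01 FPKM in DBTRG-05MG, and IFNE had 1.30, 0.89, 1.44, 1.68 and 0.64 FPKM. The near-identical type III genes IFNL2 and IFNL3, between which reads cannot be split with certainty, reached up to 4.11 and 5.10 FPKM in DBTRG-05MG. IFNA1 lay between 0.35 and 0.52 FPKM and IFNA8 between 0 and 0.10 FPKM in DBTRG-05MG. The 3 interferon genes that passed the filter (IFNL1, IFNL2 and IFNL3) were called higher in DBTRG-05MG, but since they are at 0 in U87 they passed that filter through DBTRG-05MG alone and could differ in that direction only.

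Receptor and JAK-STAT genes were present in both lines, except that IFNLR1 stayed at or under 0.44 FPKM in U87 and passed the filter through DBTRG-05MG. Of 10 tested, 3 were called higher and 2 lower in DBTRG-05MG (adjusted p under 0.05 by limma). Of all tested genes 35.2% were called higher and 19.7% lower. IFNLR1, the specific chain of the type III receptor, had 3.09, 2.38, 2.93, 3.43 and 3.98 FPKM in DBTRG-05MG and 0.35, 0.44, 0.22, 0.18 and 0.17 FPKM in U87, a difference of 1.70 ± 0.16. The other 2 higher genes were STAT3 (1.06) and IFNGR2 (1.00). JAK1 had 15.1, 16.4, 19.3, 19.1 and 19.3 FPKM in DBTRG-05MG and 56.8, 63.3, 58.3, 47.5 and 59.1 FPKM in U87, a difference of -1.62 ± 0.14, and TYK2 also was lower (-0.49). The type I receptor chains did not pass the test: IFNAR1 had 8.68, 7.57, 9.42, 8.33 and 7.50 FPKM in DBTRG-05MG and 7.57, 7.82, 7.78, 3.73 and 5.71 FPKM in U87, and IFNAR2 had a difference of 0.39 ± 0.18. IFNGR1, IL10RB and JAK2 also did not pass, with differences of -0.03, 0.22 and 0.12.

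**Figure D5:**
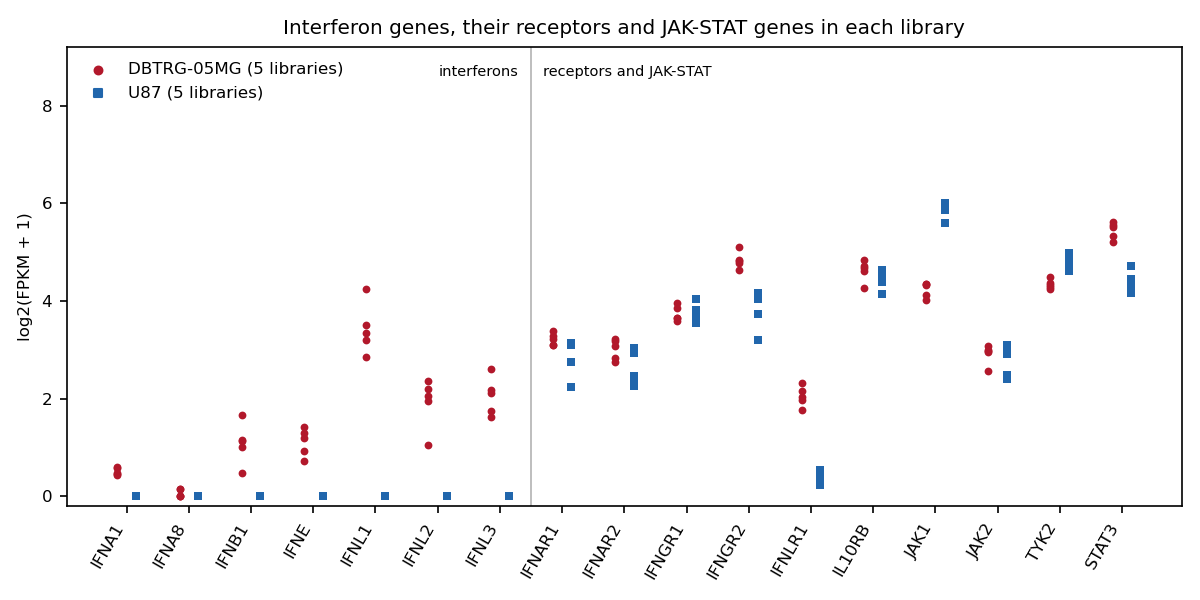
Interferon genes (left of the grey line) and receptor and JAK-STAT genes (right of it), as log2(FPKM + 1), with red circles for the 5 DBTRG-05MG libraries and blue squares for the 5 U87 libraries. All interferon genes are at 0 in U87, and JAK1 is the gene that stands highest above DBTRG-05MG in U87.

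Other genes of the pathway, from lists chosen with earlier results known, are given for comparison. Of 18 tested genes of sensing upstream of interferon, 13 were called higher and 2 (IRF3 and RNASEH2A) lower in DBTRG-05MG by limma. For this and the next list, 35.2% of all tested genes were called higher and 19.7% lower. The largest differences were those of the receptor TLR4 (3.83), DHX58 (3.72), the nucleotide hydrolase SAMHD1 (3.32) and the RNA receptor TLR3 (2.62). MB21D1, the DNA sensor cGAS, had 3.19, 2.86, 2.98, 1.32 and 1.58 FPKM in DBTRG-05MG and was at 0 in all 5 U87 libraries. MB21D1, TMEM173, IRF5, TLR4 and TLR3 had a U87 mean under 1 FPKM. They passed the filter through DBTRG-05MG and could be called in that direction only. Of 10 tested negative regulators 3 were higher and 5 lower in DBTRG-05MG. Among these regulators SOCS3 differed by -1.20, PIAS3 by -1.51, PTPN11 by -1.01 and IRF2 by 1.29. The negative regulators were thus called in both directions. Their count called higher was near the share of all tested genes given above, and their count called lower, 5 of 10, was above the 19.7% given there.

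Of 15 tested antigen presentation genes outside the members, 13 were called higher and 2 (ERAP2 and CD74) lower in DBTRG-05MG by limma. Of all tested genes 35.2% were called higher and 19.7% lower, which also applies to the further genes below. HLA-B had 196, 182, 212, 236 and 316 FPKM in DBTRG-05MG and 5.18, 6.94, 9.02, 5.23 and 10.7 FPKM in U87, and B2M, the light chain of class I molecules, had 2875, 2500.3, 3967, 3536 and 4549 FPKM in DBTRG-05MG and 636, 585, 556, 316 and 812 FPKM in U87. Reads of the HLA genes are hard to assign, since these genes are alike and vary between people. Of 50 tested further interferon-stimulated genes, 49 were higher and none lower in DBTRG-05MG, with a median difference of 2.58, where SLFN5 did not pass (0.42). Among these, CMPK2, CXCL11, LAMP3, EPSTI1, RTP4, CXCL10, GBP3, GBP4, GBP5, TNFSF10, IDO1, HSH2D and SAMD9L had a U87 mean under 1 FPKM. So did HLA-F and TAP2 of the antigen presentation genes. All of these passed the filter through DBTRG-05MG, so a call could hardly go the other way. CMPK2, the neighbour of RSAD2, had 44.2, 51.3, 99.3, 75.0 and 64.5 FPKM in DBTRG-05MG and was at 0 in all 5 U87 libraries. EPSTI1, SAMD9L and SAMD9 differed by 5.65, 4.50 and 4.42. The single trend called among these genes was that of the chemokine CXCL10, which had 18.3, 13.1, 12.7, 9.49 and 5.38 FPKM in DBTRG-05MG, a slope of -0.36 ± 0.06 (SE) per time step (limma adjusted p = 0.0327). A trend in DBTRG-05MG was called for 1.12% of all tested genes.

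Markers of lymphocytes and endothelial cells were at or near 0 in both lines, while CD68 and, in U87, fibroblast genes were not. PTPRC (CD45) and AIF1, which mark leukocytes and microglia, reached at most 0.039 and 0.022 FPKM in any library. The sum of 4 lymphocyte markers reached 0.286 FPKM at most in DBTRG-05MG, against 0.426 to 0.793 FPKM in U87, and the sum of 3 endothelial markers lay within 0.0763 to 0.110 FPKM in DBTRG-05MG, against 0.0236 to 0.124 FPKM in U87. The 7 markers of microglia and macrophages summed to 63.4 to 114 FPKM in DBTRG-05MG, against 327 to 646 FPKM in U87, nearly all of it CD68. CD68, a lysosomal protein, had 101, 81.4, 62.4, 92.1 and 113 FPKM in DBTRG-05MG and 415, 326, 347, 645 and 436 FPKM in U87. The fibroblast gene COL1A1 had 1.96, 3.13, 1.93, 1.02 and 0.64 FPKM in DBTRG-05MG and 28.6, 20.5, 29.7, 40.4 and 16.6 FPKM in U87, and PDGFRB had 1.44 to 2.89 FPKM in DBTRG-05MG, against 4.49 to 10.5 FPKM in U87. These 3 genes were lower in every DBTRG-05MG library, and their part in the line difference of the members was not tested. Of the glioma and astrocyte markers, VIM, CD44 and NES were present in both lines, and SOX2 was present in DBTRG-05MG and at 0 in U87. OLIG2 was low in both but had the higher mean in U87 (1.17 FPKM, against 0.19 FPKM in DBTRG-05MG). GFAP, S100B and AQP4 stayed at or under 0.51 FPKM in both. In bulk libraries such as these, fewer cells that express a gene and less RNA of it per cell cannot be told apart.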

How the data were processed

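The deposited table, read as FPKM, holds 10 libraries of poly(A) RNA from 2 cell lines; the unit is not given in the sources used here and was inferred from the values, since low values come in steps of 1 read that vary with the length of the transcript. Per the submitters' processing notes, HISAT, Bowtie2, RSEM and the human build hg38 were used, without versions. Neither strand nor the role of each tool is given. Entries of 0.002, the lowest in the table, were taken as 0. Relative depth, from the size of 1 read at low values, ran from 100 to 116.9% of the DBTRG-05MG 0 h library. Its absolute scale (308 genes) is approximate, and counting intervals were not computed.

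Values were analysed as log2(FPKM + 1), which understates changes of low genes, with limma 3.58.1 in R 4.3.3 (empirical Bayes with a mean-variance trend) over the 12352 genes whose mean reached 1 FPKM. Line and time were fitted together, with each a block for the other (4 residual degrees of freedom). The pairing of libraries of a line comes from the design. Trends used the rank of time in each line (6 residual degrees of freedom). The Benjamini-Hochberg method was used for adjustment over all tested genes, and calls were made under 0.05. The fits were tested on simulated data. A further gene of the receptor and JAK-STAT list is not reported here and is not in its counts.

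Members and lists were chosen with earlier results of these data known, so the line difference of genes already known to differ is no independent finding. Values in every library are given for up to 5 members of each role with the highest mean level, and for those with the largest or smallest difference or change. From the lists, the genes with the largest difference are named, and others that make up a small count. Positions are from GENCODE 29 (GRCh38) and promoter windows from RefSeq (GRCh38.p14); 7 members had no window. Alternatives were the pseudocount, the filter, scaling, the mean-variance trend, the threshold, the fold, the coding of time, the blocks and leaving out each library. Python 3.11.15 with numpy 2.4.6, pandas 2.3.3 and matplotlib 3.10.9 served for the rest.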

Additional observations from a re-analysis of the deposited data

Results flagged for a closer look

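For 7 members all 4 later libraries moved one way from 0 h in DBTRG-05MG and the other way in U87, against 4.97% of all tested genes. The values are the mean log2 change of the later libraries in DBTRG-05MG minus that in U87. For RSAD2 the difference was 1.11, for DDX60 1.10, for PARP14 0.84, for SP100 0.66 and for IFIT1 0.58, with the later libraries above 0 h in DBTRG-05MG and below it in U87. For BST2 it was -0.67 and for IFITM2 -1.18, with the later libraries below 0 h in DBTRG-05MG and above it in U87. The split of reads among the IFITM genes is uncertain, so the course of IFITM2 is uncertain too. The mean changes were 1.05 in DBTRG-05MG and -0.07 in U87 for RSAD2, and -0.58 in DBTRG-05MG and 0.60 in U87 for IFITM2. This opposite movement was not tested, and the 4 changes of a line share its single 0 h library. The separate test of a difference in trend called none of the members by limma, with DDX60 smallest (adjusted p = 0.296). RSAD2, BST2, IFIT1 and DDX60 were under 1 FPKM in every U87 library, so their changes there rest on low levels, for which read counts were not computed. RSAD2 was at 0 in 3 of the 5 U87 libraries.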

How the results depend on the processing

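The line difference of the 41 members kept its direction and its call in all 697 values from the alternatives, with a largest adjusted p of 0.0266 (IFITM2, limma). That includes the fit without time as a block, in which 41 members were higher and 0 lower, and the fits that left out each library in turn. The counts of members called at 6, 12, 24 and 48 h were 0 under each alternative. Without line as a block this count says nothing, since the line difference then falls into the spread and a call could hardly be made. The counts of members called for a trend were 0 under each alternative run for the trends, to which leaving out a block was not applied. The counts by fold moved. With 1.5-fold in place of 2-fold, 3, 11, 6 and 7 members were higher at 6, 12, 24 and 48 h in DBTRG-05MG and 2, 5, 3 and 2 in U87, and 2, 1, 0 and 2 were lower in DBTRG-05MG and 5, 5, 2 and 3 in U87. With a pseudocount of 0.1, 2, 7, 2 and 4 members were 2-fold higher and 4, 2, 2 and 1 were 2-fold lower in U87. Library medians of all tested genes ran from 0.20 above the mean library (DBTRG-05MG 24 h) to 0.27 below it (U87 48 h) on the log2 scale, which is small beside the members' line differences except that of IFITM2 (0.74 to 1.15 over the alternatives) but as large as most of their changes over time.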

Other observations

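Of the class II antigen presentation genes, most were higher in U87, unlike the members. CIITA, the master regulator of class II genes, had 0 to 0.121 FPKM in DBTRG-05MG, against 0.817 to 1.74 FPKM in U87. HLA-DMA had 0.214 to 0.458 FPKM in DBTRG-05MG, against 0.768 to 2.14 FPKM in U87, and CD74, the class II invariant chain, had 1.08 to 2.75 FPKM in DBTRG-05MG, against 12.6 to 32.5 FPKM in U87. For CD74 the line difference was -3.07 ± 0.28 (SE, limma adjusted p = 1.65e-05). HLA-DRA and HLA-DRB1 stayed under 0.5 FPKM in every library. HLA-DPA1, also low, had 0.208 to 0.309 FPKM in DBTRG-05MG, against 0.0833 to 0.176 FPKM in U87, and was the gene of these that was higher in DBTRG-05MG.

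The IFI44L promoter window holds the same stretch of 60 bases at 2 places, each with an ISRE match, from -164 to -155 and from -73 to -64 relative to the gene start. IFI44L had 67.5 to 97.2 FPKM in DBTRG-05MG, against 0.887 to 2.67 FPKM in U87, and its neighbour IFI44, with a single ISRE match from -18 to -9, had 86.4 to 135 FPKM in DBTRG-05MG, against 7.00 to 15.0 FPKM in U87.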
